A study of Mus musculus with 2 samples.

Results

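The nuclear genes that encode subunits of the mitochondrial respiratory chain and ATP synthase were followed in dorsal root ganglia, the ganglia that hold the cell bodies of sensory neurons, of mice with chemically dried skin. Members were taken by gene symbol: names that begin with Nduf and a letter a, b, c, s or v before a digit, Sdha to Sdhd, names that begin with Uqcr, with Cox and a digit from 4 to 8, or with Atp5, and Cyc1 and Cycs. This gave 86 of the 23282 rows of the count tables. Complex I had 37 rows, complex II 4, complex III 9 with Cyc1, complex IV 18 and complex V 17, and Cycs stood alone. The name rule also takes Atp5s and Atp5sl, which encode related factors rather than subunits of ATP synthase, and Cox7a2l, which encodes a factor that joins complexes into supercomplexes.

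Complexes I to IV of the inner mitochondrial membrane pass electrons from NADH and succinate to oxygen, and complexes I, III and IV pump protons as they do so. Complex V uses the proton gradient to make ATP. Each of these complexes but complex II is built from products of both the nuclear and the mitochondrial genome. The catalytic core of complex IV is encoded in mitochondrial DNA, so its nuclear genes code for the surrounding subunits, several of which have muscle, lung or testis isoforms. Sensory neurons depend on this machinery along axons that run from the spinal cord to the skin.

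Control mice were wild type and received water. The other mice, also wild type, received acetone, ether and water, called AEW here. The AEW treatment was repeated daily for 5 days and the ganglia were collected on day 6. Each group had 6 mice, whose RNA was combined into 1 pool and sequenced as 1 library, so no value below has a replicate check, and a difference between the treatments cannot be told apart from one between the pools. Age, sex, strain and ganglion level were not given in the sources used here. The labels call the cell type neurons, but the libraries held markers of many other cells, so the samples are described here as ganglia.

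Total counts were 9333882 for the control and 14376228 for AEW, a ratio of 1.54. Counts were scaled with trimmed-mean (TMM) library sizes and are given as CPM, counts scaled to a library of fixed size. Measured genes are those whose counts in both libraries sum to at least 20, and a gene was called higher or lower when the AEW to control ratio was at least 1.5-fold with a 95% interval that excludes 1. These intervals cover counting error only. Of 21 neuron markers, 13 were called higher and 0 lower, with a median log2 ratio of 0.78, and their share of the library went from 1.0% to 1.67%. All 12 macrophage markers and 8 of 9 red blood cell markers were called lower, with medians of -1.31 and -0.75. Keratinocyte and hair genes had 194 counts in control ganglia and 12427 after AEW. Fewer cells of a type and less RNA per cell cannot be told apart in such tissue libraries.

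Of the 86 members, 84 were measured. The testis genes Cox8c, with 0 counts in both libraries, and Cox7b2, with 2 and 3 counts, were not. A count of 0 allows up to 3 counts, or 0.331 CPM for the control and 0.202 CPM for AEW. In the AEW library 7 members were called higher, beside 17.3% of all 14854 measured genes, and 14 were called lower, beside 14.9%. As shares of the measured members these are 8.33% and 16.7%, so fewer members than genes at large were called higher, while the share called lower was near the background. The median log2 ratio was 0.05, against 0.03 over all measured genes, and it ranged over members from -2.03 to 1.40. Of the ratios, 47 lay above 1 and 37 below. With a summed count of at least 500, 5 of 76 members were called higher and 12 lower, beside 15.3% and 10.7% of 7046 genes.

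The split of calls moved with the scaling. With total counts as library sizes 9 members were called higher and 11 lower, beside 20.4% and 12.3% of genes. When the median of the neuron markers was set to equal levels, 0 members were called higher and 54 were called lower, beside 3.64% and 58.9% of genes. That scaling moves the median of all measured genes by -0.78 on the log2 scale. Centring each gene on genes of like GC content in the last 500 bases of the transcript gave 2 higher and 20 lower, beside 14.6% and 15.3%. A 2-fold limit left 1 member higher and 5 lower, beside 8.23% and 6.85%. An interval that excludes 1.5-fold left 2 higher and 10 lower, beside 8.93% and 7.21%.

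**Figure D1:**
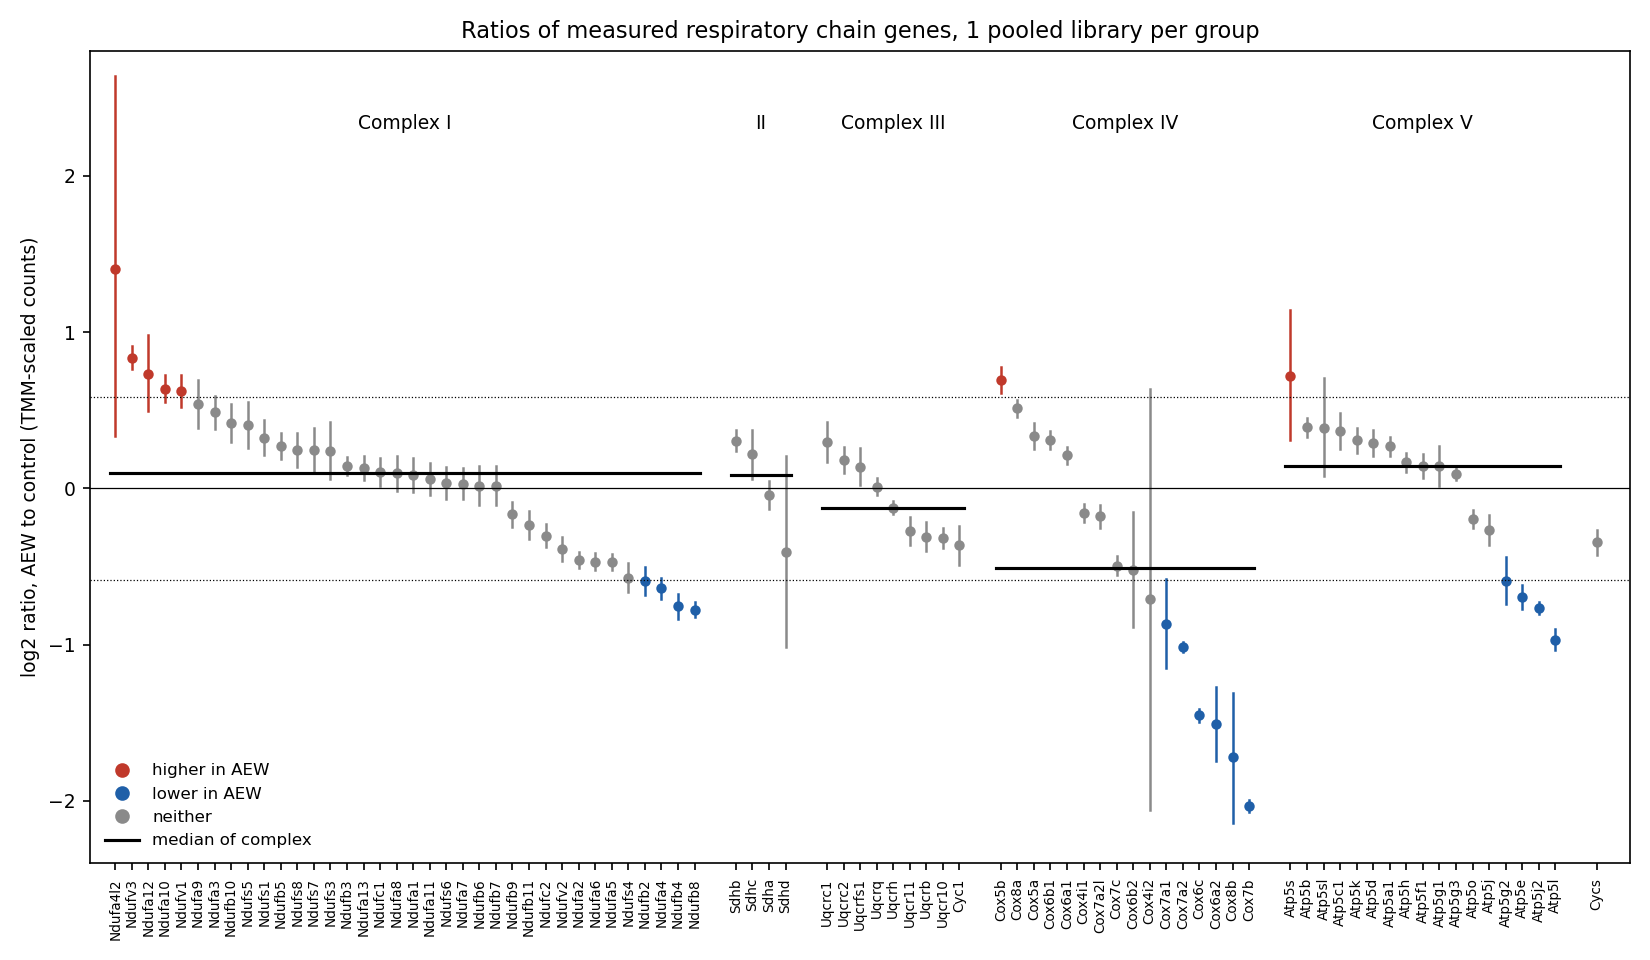
Log2 ratio of AEW to control for 83 of the 84 measured members, ordered within each complex, with points for ratios, vertical lines for 95% counting intervals, thick lines for the median over all measured members of each complex and dotted lines at 1.5-fold. Complex IV spans the range from Cox5b at 0.69 to Cox7b at -2.03 and has the lowest median, -0.51 (-0.15 without the tissue isoforms), while all 9 genes of complex III and all 4 of complex II lie between the dotted lines.

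Upstream sequences are shown for members with clear calls in each direction, picked after their values were seen, to let the starts of genes that differ in sign be compared. RefSeq promoter entries (GRCm38.p6) matched 70 of the 86 members. For each gene the longest stretch of the 250 bases before the start that overlaps no annotated exon is given 5′ to 3′ on the gene's strand, with motif matches in capitals. Ndufv3 (chr17:31519981-31520114, plus strand) and Cox5b (chr1:36691237-36691448, plus strand) were called higher, and their stretches are 61.9% and 62.7% G and C. Cox7b (chrX:106015450-106015699, plus strand), Cox7a2 (chr9:79759879-79760103, minus strand), Atp5l (chr9:44920752-44920992, minus strand) and the muscle isoform Cox8b (chr7:140900447-140900696, minus strand) were called lower, at 43.6%, 53.8%, 44.4% and 47.2%. None of the searched motifs lies in the stretches of Ndufv3, Cox5b, Cox7b and Cox7a2. That of Atp5l holds an NRF1 match that starts 241 bases and an ETS match that starts 212 bases before the gene, and that of Cox8b an E-box 19 bases before it.
Ndufv3: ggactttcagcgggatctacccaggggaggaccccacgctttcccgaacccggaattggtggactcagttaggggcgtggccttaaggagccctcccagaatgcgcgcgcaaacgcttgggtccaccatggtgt
Cox5b: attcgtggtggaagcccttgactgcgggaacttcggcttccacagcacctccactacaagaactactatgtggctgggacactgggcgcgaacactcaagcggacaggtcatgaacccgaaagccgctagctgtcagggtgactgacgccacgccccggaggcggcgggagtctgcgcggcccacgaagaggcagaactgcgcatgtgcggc
Cox7b: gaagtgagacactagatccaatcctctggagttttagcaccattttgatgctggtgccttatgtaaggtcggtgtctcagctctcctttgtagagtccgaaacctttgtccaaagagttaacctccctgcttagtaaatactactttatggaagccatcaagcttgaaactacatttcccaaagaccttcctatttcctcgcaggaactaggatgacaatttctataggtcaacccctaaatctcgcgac
Cox7a2: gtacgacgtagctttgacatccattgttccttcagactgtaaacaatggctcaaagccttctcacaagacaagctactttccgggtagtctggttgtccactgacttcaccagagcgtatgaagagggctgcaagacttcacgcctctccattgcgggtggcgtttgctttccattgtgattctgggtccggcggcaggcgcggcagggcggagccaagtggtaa
Atp5l: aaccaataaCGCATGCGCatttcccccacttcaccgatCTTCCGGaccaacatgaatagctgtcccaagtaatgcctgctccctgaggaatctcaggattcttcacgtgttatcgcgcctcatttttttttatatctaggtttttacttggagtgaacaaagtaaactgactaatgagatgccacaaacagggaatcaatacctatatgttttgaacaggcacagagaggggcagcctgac
Cox8b: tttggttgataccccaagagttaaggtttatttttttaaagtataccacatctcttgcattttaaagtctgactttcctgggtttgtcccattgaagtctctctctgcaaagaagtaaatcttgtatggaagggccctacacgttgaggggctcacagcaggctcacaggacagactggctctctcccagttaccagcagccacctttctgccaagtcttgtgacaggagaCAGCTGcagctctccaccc

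Motifs of factors known to act on respiratory genes were searched on both strands of the 250 bases before each start, in 70 members, 27025 RefSeq genes and the 11213 of these that were measured. The NRF1 motif GCGCANGCG was found in 15 members (21.4%), in 5.86% of all genes and in 11.3% of measured genes. The ETS motif CCGGAAG, which GABP binds, was found in 12 members (17.1%), against 7.83% and 13.8%. The YY1 motif AANATGGC was found in 7 members (10%), against 4.49% and 4.93%, and the CRE motif TGACGTCA in 5 (7.14%), against 1.77% and 2.86%. The muscle E-box CAGCTG was found in 6 members (8.57%), against 14.7% and 14.8%. Matches of different motifs overlapped in 0 cases. Of 6 members called higher with a promoter entry, 0 held an NRF1 and 0 an ETS match, and of 12 called lower, 3 held an NRF1 match (Atp5g2, Atp5l and Ndufb4) and 2 an ETS match (Atp5e and Atp5l). A match is a description of letters and not a bound site.

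The complexes differed in how their members were spread. Complex IV had 1 member called higher, 6 lower and 9 neither among 16 measured, with a median log2 ratio of -0.51. That median was -0.15 without the tissue isoforms and -0.17 with a summed count of at least 500. Of its 6 members called lower, 3 are the muscle isoforms Cox6a2, Cox7a1 and Cox8b, and most skeletal muscle markers were lower too, with a median of -1.11. Complex I had 5 higher, 4 lower and 28 neither among 37, with a median of 0.10. Centring on GC content of the last 500 bases left 0 of these 5 calls higher, and centring on GC content of the transcript or on coding length left 3. Complex V had 1 higher, 4 lower and 12 neither among 17, with a median of 0.14. None of the 4 complex II genes and none of the 9 complex III genes was called, with medians of 0.09 and -0.12. Either direction was called for 32.3% of all measured genes, and these complexes hold few genes. Genes are not replicates, and no test between complexes was made.

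As summed counts, members took 2.40% of the control library and 2.11% of the AEW library, a scaled ratio of 0.828 (95% counting interval 0.824 to 0.833). Complex IV went from 0.790% to 0.533%, a ratio of 0.635 (0.628 to 0.641). The sums of the other complexes lay closer to 1, with ratios of 0.915 for complex I, 0.930 for complex III and 0.918 for complex V, and 1.13 for complex II. In the control library Cox7b, Cox7a2 and Cox6c had the most counts of complex IV, and all 3 were called lower. Leaving out abundant genes with low ratios raises the ratio of a sum by construction, and no like removal was made in the other complexes. Without Cox7b, Cox6c and Cox7a2, a set chosen after their values were seen, the complex IV share was 0.293% in control ganglia and 0.339% after AEW. The ratio of that sum was 1.09 (1.07 to 1.10). Over all members the share without these genes was 1.90% and 1.92%, with a ratio of 0.949.

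**Figure D2:**
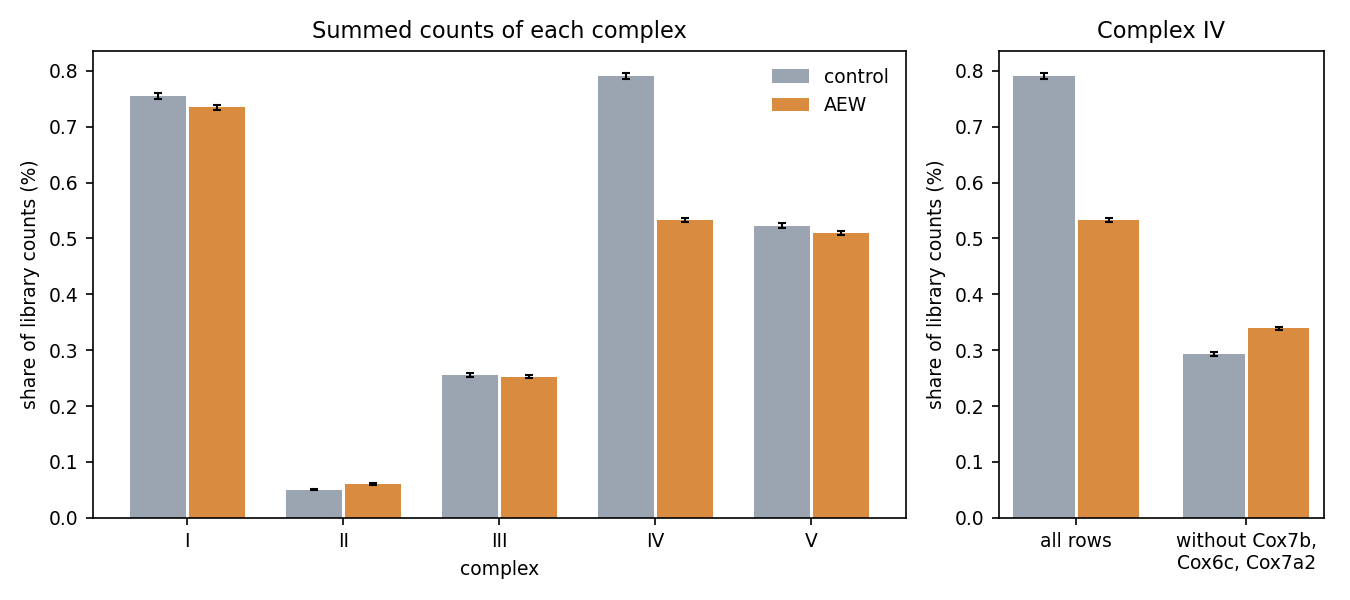
Summed counts of each complex as a percentage of library counts, in the control (grey) and AEW (orange) library, with exact 95% binomial intervals as bars, and on the right complex IV with and without these 3 genes. Complex IV drops from 0.790% to 0.533% with all rows and stands at 0.293% and 0.339% without these 3 genes.

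In complex I, the NADH dehydrogenase, core and accessory subunits were spread differently. Ndufv1, which binds the flavin that accepts electrons from NADH, had 1125 counts in control ganglia and 2836 after AEW, or 124 and 191 CPM, and was 1.54-fold higher (95% counting interval 1.44 to 1.65). It was not called after centring on GC content or on coding length. With TMM scaling alone it was the only core subunit of complexes I, II, III and V to be called. Of the other core subunits, which carry iron-sulfur clusters or shape the quinone site, Ndufs1 was at 1.25-fold, and Ndufs8, Ndufs7 and Ndufs3 each between 1.18 and 1.19-fold. Ndufv2, the partner of Ndufv1 in the flavin module, lay on the other side at a ratio of 0.765 (0.725 to 0.807), from 268 to 205 CPM. The median log2 ratio was 0.25 over the 7 core subunits and 0.03 over the 29 other subunits of complex I.

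Among the accessory subunits, Ndufv3, which sits beside the flavin module, had 2075 and 6067 counts, or 229 and 409 CPM. Ndufv3 was 1.79-fold higher (1.70 to 1.88), a call lost after centring on GC content of the last 500 bases. Its principal GENCODE M21 transcript has 1404 coding bases, and the lengths of its other transcripts were not used. Ndufa10 and Ndufa12 were 1.56-fold and 1.66-fold higher, with 1482 and 3774 counts for the first and 194 and 528 for the second. Both calls were lost after centring on GC content of the last 500 bases. That of Ndufa10 was also lost after centring on GC content of the transcript or on coding length. Ndufa12 shares 26.2% of its 50-base words with another gene. Subunits of the membrane arm named Ndufb made up much of the other end. Ndufb8 went from 725 to 423 CPM and was 1.71-fold lower (1.65 to 1.77). Ndufb4 went from 296 to 175 CPM, 1.69-fold lower (1.60 to 1.78), and Ndufb2 from 213 to 141 CPM, 1.51-fold lower (1.42 to 1.61). Ndufb2 was just inside the 1.5-fold limit and Ndufs4, a subunit mutated in models of Leigh syndrome, just outside it at 1.48-fold lower (1.40 to 1.58). Exons of Ndufb8 and Ndufb2 overlap exons of another gene on the same strand, and how the counting split such reads was not given in the sources used here. Ndufb4 shares 37.0% and Ndufb8 13.5% of their 50-base words with transcripts of other genes.

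The direction was not shared by the Ndufb group. Ndufb10, Ndufb5 and Ndufb3 had ratios of 1.34, 1.21 and 1.10, and Ndufb6 and Ndufb7 were both at 1.01. Ndufa9 at 1.45, Ndufa3 at 1.40 and Ndufs5 at 1.33 stayed short of the limit. A block of 7 accessory subunits, Ndufa1, Ndufa7, Ndufa8, Ndufa11, Ndufa13, Ndufc1 and Ndufs6, lay between 1.02 and 1.09, each with at least 1003 counts in each library. Ndufb9, Ndufb11 and Ndufc2 were at 0.892, 0.850 and 0.811. Ndufa2, Ndufa5 and Ndufa6 lay together at 0.728, 0.721 and 0.723 and did not reach the limit. Ndufa4, named for complex I but now placed in complex IV, went from 410 to 263 CPM and was 1.56-fold lower (1.49 to 1.63).

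In complex II, succinate dehydrogenase, the iron-sulfur subunit Sdhb had 2479 and 5017 counts, 274 and 339 CPM, at a ratio of 1.24 (1.18 to 1.30). The flavoprotein Sdha was at 0.971 (0.914 to 1.03) with 1697 and 2698 counts. The membrane anchors were Sdhc, at 1.16 (1.04 to 1.30), and Sdhd, whose 43 and 53 counts gave 0.753 (0.494 to 1.15). The interval of Sdhd includes 1, so no difference was detectable at this depth.

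In complex III, cytochrome c reductase, the ratios kept within a narrow range from 0.777 to 1.23. The lowest was that of Cyc1, cytochrome c1, with 928 and 1180 counts and an interval of 0.712 to 0.847. The Rieske iron-sulfur protein Uqcrfs1, the other electron carrier in the list, was at 1.10 (1.02 to 1.19). The large core proteins Uqcrc1 and Uqcrc2 were at 1.23 and 1.14, and the hinge protein Uqcrh at 0.917, from 861 to 790 CPM. The small subunit Uqcrq was at 1.01 (0.97 to 1.05), with 4377 and 7216 counts. The small subunits Uqcr10, Uqcrb and Uqcr11 lay between 0.803 and 0.827. Cycs, the somatic cytochrome c that carries electrons from complex III to complex IV, had 2300 and 2965 counts, at a ratio of 0.788 (0.746 to 0.832).

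Complex IV, cytochrome c oxidase, held the largest differences of the chain. Cox7b (ENSMUSG00000031231.4, chromosome X, 106015700 to 106022450, plus strand, mm10) had 17301 counts in control ganglia and 6919 after AEW, fewer reads in the deeper library. This is 1911 and 467 CPM, 4.09-fold lower (95% counting interval 3.98 to 4.21). Cox6c (ENSMUSG00000014313.15, chromosome 15, 35925886 to 35938246, minus strand) had 12371 and 7396 counts, or 1366 and 499 CPM, 2.74-fold lower (2.66 to 2.82). Cox7a2 (ENSMUSG00000032330.7, chromosome 9, 79755361 to 79759878, minus strand) had 16747 and 13573 counts, or 1850 and 916 CPM, 2.02-fold lower (1.97 to 2.07). All 3 encode short single-pass subunits that surround the catalytic core.

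Ratios in the complex lay on both sides of 1, with 5 above and 11 below among 16 measured. Cox5b, which binds zinc on the matrix side, had 1729 and 4576 counts, or 191 and 309 CPM, and was 1.62-fold higher (1.53 to 1.71). Cox8a was at 1.43-fold, from 442 to 630 CPM, and Cox5a, Cox6b1 and Cox6a1 at 1.26, 1.24 and 1.16. Cox4i1, the general isoform of subunit IV, was at 0.898 (0.863 to 0.935), and the supercomplex factor Cox7a2l at 0.883. Cox7c, a further short membrane subunit, was at 0.710 (0.681 to 0.740), below 1 but short of the limit.

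In complex V, ATP synthase, all 4 members of the core list, the catalytic head and its shaft, lay above 1: the beta subunit Atp5b at 1.31 (367 to 481 CPM), the gamma subunit Atp5c1 at 1.29, the delta subunit Atp5d at 1.22 and the alpha subunit Atp5a1 at 1.21 (369 to 445 CPM). None reached the limit, and their median log2 ratio was 0.33. Atp5e, the epsilon subunit at the foot of the same shaft, was 1.62-fold lower (1.53 to 1.71), from 284 to 176 CPM.

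The lowest ratios of complex V were those of small subunits of the membrane part, whose other members lay on both sides of 1. Atp5l, subunit g, had 3891 and 3257 counts, or 430 and 220 CPM, and was 1.96-fold lower (1.87 to 2.05). Atp5j2, subunit f, had 10201 and 9814 counts, or 1127 and 662 CPM, 1.70-fold lower (1.65 to 1.75). Their neighbour Atp5k, subunit e, was at 1.24 (1.17 to 1.31). The rotor ring is encoded by 3 genes with the same mature protein, of which Atp5g2 was 1.51-fold lower (1.36 to 1.67) on 688 and 748 counts, while Atp5g1 and Atp5g3 were at 1.10 and 1.06. Transcripts of Atp5g2 share 87.4% of their 50-base words with other genes and those of Atp5l 68.5%, so both counts depend on how multiply matching reads were treated. The subunits of the side stalk that holds the head in place lay nearer to 1, with Atp5h at 1.12, Atp5f1 at 1.10, Atp5o at 0.872 and Atp5j at 0.831. Atp5s, a related factor, was 1.64-fold higher (1.24 to 2.21) on 68 and 183 counts.

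Across the chain, the 17 core subunits of complexes I, II, III and V had a median log2 ratio of 0.25, with 13 ratios above 1, 1 call higher and 0 lower. Their summed share went from 0.247% to 0.305%, a ratio of 1.16 (1.15 to 1.18). The core list leaves out Atp5e, a subunit of the ATP synthase shaft that was called lower at a ratio of 0.618. The other 61 members, tissue isoforms apart, had a median of 0.02, with 5 called higher (8.20%) and 11 lower (18.0%), against 17.3% and 14.9% of all genes. They include the genes of complex IV, which has none in the core list, so role and complex are mixed here. In complex III the median was -0.11 over 2 core subunits and -0.12 over 7 others. Under the neuron marker scaling the core median is -0.54, and the neuron markers' own median of 0.78 lies above that of the core list. Centring on GC content of the last 500 bases gives a core median of 0.11.

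The members called lower were mostly short. Coding lengths were taken from the principal GENCODE M21 transcript of each gene, and 83 measured members had one. Of the 28 members with up to 320 coding bases, 11 were called lower and 1 higher, with a median log2 ratio of -0.40. The 28 of middle length had 2 lower and 2 higher and a median of 0.02, and the 27 above 516 bases had 1 lower and 4 higher and a median of 0.27. Among all measured genes in the same bins the medians were -0.09, -0.02 and 0.04, and 22.3%, 16.0% and 14.1% were called lower. Spearman's rho between coding length and log2 ratio was 0.45 over 83 members and 0.00 over 13764 genes, as a description across genes that share the same pair of libraries. Role and length ran together: of the 17 core subunits 14 were in the longest class, 3 in the middle and 0 in the shortest. Atp5e, which the core list leaves out, has 156 coding bases and falls in the shortest class. Within the longest class the median was 0.26 over the 14 core subunits and 0.27 over 13 members outside the core list. These 13 include Uqcrc1 and Uqcrc2, named core proteins above, and the related factor Atp5s. In the middle class the median was 0.22 over 3 core subunits and 0.02 over 24 others, tissue isoforms apart. Role was not tested apart from length. Centring on genes of like coding length kept 13 of the 14 calls lower and 5 of the 7 calls higher, without Ndufb2, Ndufa10 and Ndufv1. The lowest bin of this centring held all 404 genes with up to 320 coding bases, so lengths within that class were not compared.

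**Figure D3:**
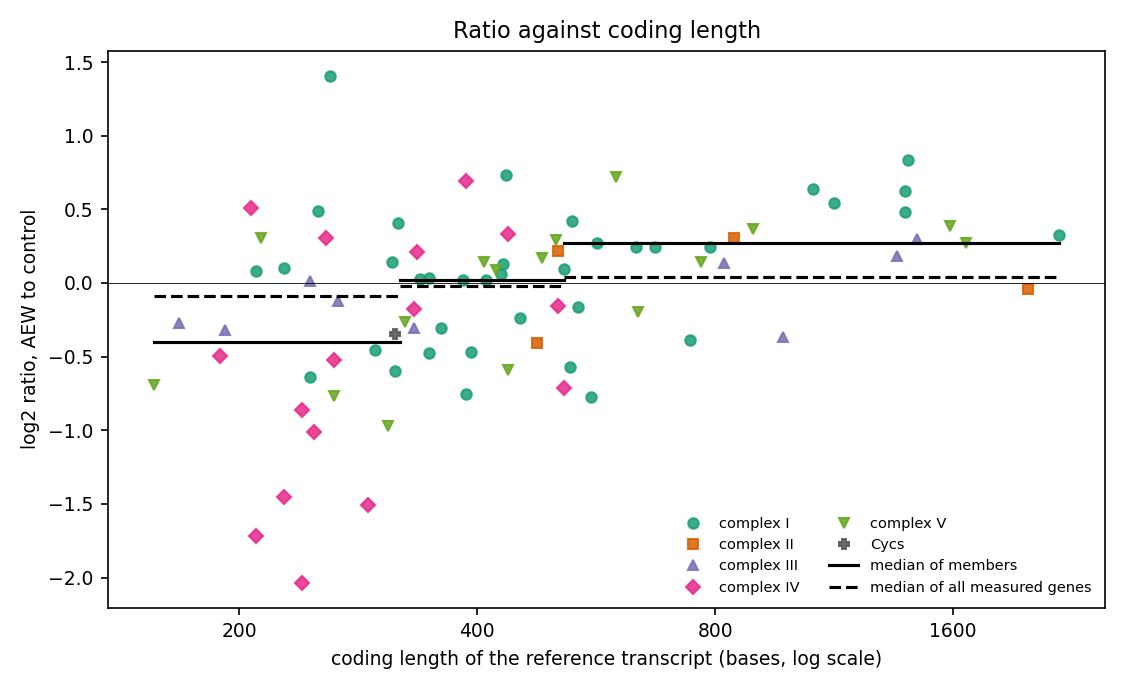
Log2 ratio of AEW to control against coding length in bases on a log axis, for 83 measured members marked by complex, with medians of the members (solid) and of all measured genes (dashed) in 3 length classes. Member medians run from -0.40 to 0.27 while those of all genes go from -0.09 to 0.04, and the lowest points are complex IV genes under 320 bases.

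Most tissue isoforms stood at the low end, but their list also holds the highest log2 ratio of all measured members, that of Ndufa4l2 at 1.40. Of 8 listed, 6 were measured, with 1 called higher (16.7%) and 3 lower (50%) and a median log2 ratio of -0.79. Over all measured genes 17.3% and 14.9% were called, so the share called higher was at the background. The isoforms known from heart and skeletal muscle were the 3 called lower. Cox8b had 149 and 74 counts, or 16.5 and 4.99 CPM, 3.30-fold lower (2.48 to 4.42). Cox6a2 had 403 and 232 counts, or 44.5 and 15.7 CPM, 2.84-fold lower (2.41 to 3.36), and Cox7a1 had 217 and 195 counts, 1.82-fold lower (1.49 to 2.22). The testis isoform Cox6b2 was at 0.697 (0.542 to 0.899) and the lung isoform Cox4i2, with 11 counts in each library, at 0.611 (0.240 to 1.55).

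Scaling cancels in the share of an isoform among the counts of its pair. Cox6a2 made up 8.33% (exact binomial interval 7.56 to 9.14) of the Cox6a pair in control ganglia and 2.69% (2.35 to 3.05) after AEW. Cox8b made up 3.59% (3.04 to 4.20) of the Cox8 pair and then 0.786% (0.617 to 0.985). The share of Cox7a1 was 1.28% and 1.42% with overlapping intervals, and its general partner Cox7a2 was lower too. Cox6b2, which is no muscle isoform, also took a smaller share of its pair, 3.11% (2.59 to 3.71) in control ganglia and 1.78% (1.5 to 2.10) after AEW. Most skeletal muscle markers moved the same way as the muscle isoforms: 14 of 20 were called lower and 1 higher, with a median of -1.11. Their summed share went from 0.258% to 0.122%, with no marker at 0. Myh4 was 2.95-fold lower and Ckm 2.50-fold lower, while Casq1 and Myh1 were at 1.14 and 1.06 and Actn2 was 2.03-fold higher. Of the 20 ratios, 3 lay above 1 and 17 below. The part of muscle RNA in the isoform result was not tested.

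Ndufa4l2, a relative of Ndufa4 known to be induced by low oxygen, had 9 and 39 counts, at 2.65-fold higher (1.26 to 6.22). Its share of the Ndufa4 pair went from 0.242% (0.111 to 0.458) to 0.990% (0.705 to 1.35). With so few control counts the size of this difference is uncertain.

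**Figure D4:**
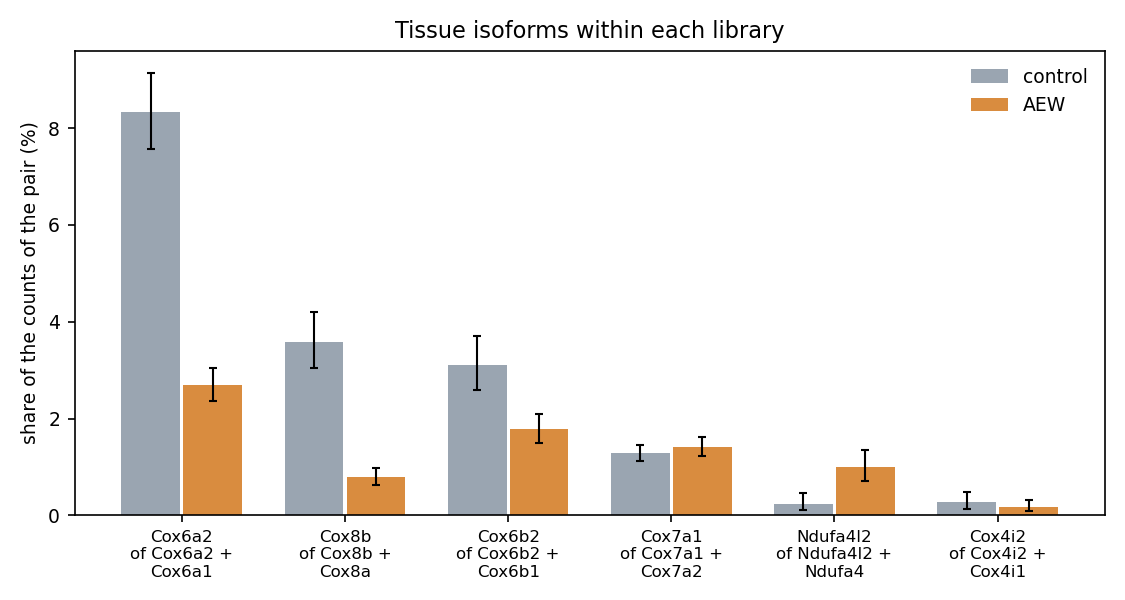
Counts of each tissue isoform as a percentage of the counts of the pair it forms with its general partner, in the control (grey) and AEW (orange) library, with exact 95% binomial intervals. Cox6a2 and Cox8b go from 8.33% and 3.59% to 2.69% and 0.786% without overlap of intervals, while the bars of Cox7a1 and Cox4i2 overlap.

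Many members have near-identical pseudogenes, and the treatment of reads with several matches was not given in the sources used here. Of 85 members with a gene model, 21 share over 10% of their 50-base words with transcripts of other genes. Among these the median log2 ratio was -0.18, and 2 were called higher (9.52%) and 5 lower (23.8%), beside 17.3% and 14.9% of all measured genes. Among the 45 with no shared word, 5 were called higher (11.1%) and 6 lower (13.3%), with a median of 0.08. Cox7a2 and Ndufv3 share no such word and Cox7b 0.63%. Cox6c shares 13.9%, all with Cox6c2, and Cox5b 25.9%.

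Assembly factors and related mitochondrial genes gave the setting of these values, from lists written with earlier results of these data known. Of 51 measured assembly factors, 7 were called higher and 4 lower, with a median log2 ratio of 0.12. These are 13.7% and 7.84%, below the 17.3% and 14.9% of all measured genes, which are also the shares to set beside the counts of the lists that follow. Ndufaf3, which acts in early complex I assembly, was 2.22-fold higher (1.85 to 2.68), and Bcs1l, which inserts the Rieske protein into complex III, 2.17-fold higher (1.65 to 2.89). For complex IV, whose summed subunits were lower, 2 of 23 assembly factors were called higher and 3 lower. The copper chaperone Cox17 was 1.63-fold higher (1.49 to 1.79), while Pet100 was 1.83-fold lower (1.68 to 1.99) and Taco1, a translational activator of a mitochondrial subunit, 3.02-fold lower (1.84 to 5.07) on 48 and 26 counts. Of 6 subunits and partners that the name rule misses, Usmg5, a small subunit of ATP synthase, was 2.46-fold lower (2.35 to 2.58), from 475 to 193 CPM, and the other 5 were not called.

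Lists of enzymes that feed the chain had higher medians than the members as a whole, at 0.05. Of 18 measured genes of pyruvate oxidation and the tricarboxylic acid cycle, 5 were called higher and 1 lower, with a median log2 ratio of 0.22. Cs, citrate synthase, was 1.74-fold higher, and Idh2 was 1.63-fold lower. Of 16 glycolytic genes, 6 were called higher and 0 lower, with a median of 0.39. Eno2, the neuronal enolase, also counted as a neuron marker, was 2.20-fold and Pkm, pyruvate kinase, 1.76-fold higher. Fatty acid oxidation had 0 higher and 1 lower of 13 with a median of 0.26, the call being Cpt1b, the muscle carnitine transferase, at 1.94-fold lower (1.18 to 3.21). The difference between these medians and those of the subunits was not tested.

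Of 20 measured regulators of mitochondrial biogenesis, 4 were called higher (20%) and 2 lower (10%), near the shares over all measured genes, with a median log2 ratio of -0.06. Ppargc1a, the coactivator PGC-1alpha, went from 33.6 to 21.1 CPM and was 1.59-fold lower (1.36 to 1.87), and Yy1 was 1.78-fold lower (1.59 to 1.99). Esrra, a nuclear receptor that works with PGC-1alpha, was 1.75-fold higher (1.56 to 1.98), and Gabpb1, a subunit of GABP, 1.88-fold higher (1.30 to 2.77) on 39 and 120 counts.

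Protein import genes had 4 higher and 4 lower of 23, with a median of -0.03. Tomm40, the import channel of the outer membrane, was 2.06-fold higher and the small chaperone Timm8b 2.46-fold lower. Mitochondrial dynamics and cristae genes had 0 calls in 13, at a median of -0.04. Carriers and channels had 2 higher and 0 lower of 12, Slc25a22 and Vdac1, and antioxidant enzymes 2 higher and 0 lower of 8, led by Prdx3 at 1.87-fold. Mitochondrial ribosomal proteins had 7 higher and 2 lower of 77, at a median of 0.15. Cytosolic ribosomal proteins had 1 higher and 19 lower of 85, at a median of -0.21.

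**Figure D5:**
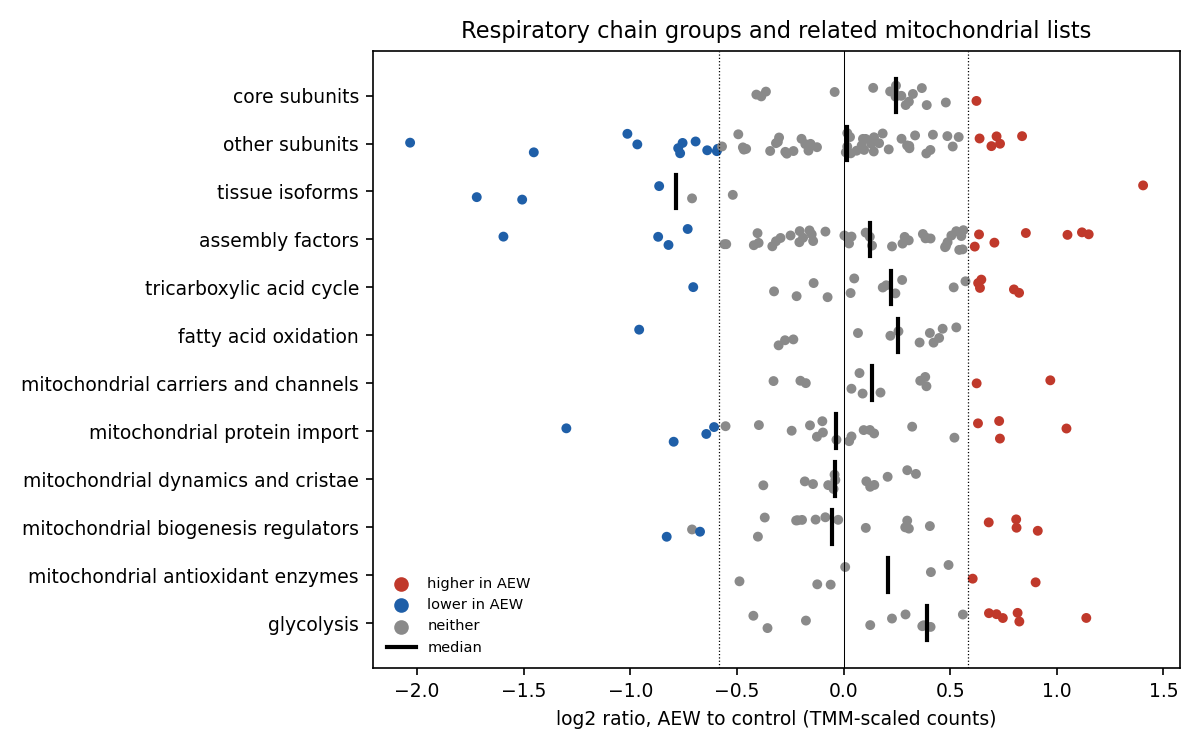
Log2 ratio of AEW to control for each measured gene of the respiratory chain groups and of related mitochondrial lists, with vertical bars at the medians and dotted lines at 1.5-fold. The core subunits, at a median of 0.25, sit near the tricarboxylic acid cycle genes at 0.22, and the tissue isoforms have the lowest median, -0.79.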

How the data were processed

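Total RNA was obtained with Trizol, and 500 ng went into a Lexogen QuantSeq preparation, per the labels' protocols. Bowtie2, bedtools and mm10 are named, without versions, in the submitters' processing notes. Not given in the sources used here are the annotation, strand use and the handling of duplicate or multiply matching reads. The authors deposited raw read counts, as whole numbers for each gene symbol. Rn45s, a ribosomal RNA row, took 5.77% and 4.03% of the control and AEW counts. A total of 35 symbols occurred in more than 1 row, none of them a member, and were left out of calls.

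TMM scaling with edgeR 4.0.16 (R 4.3.3) gave factors of 0.970 and 1.03. Each ratio has an exact conditional binomial (Clopper-Pearson) interval from scipy 1.17.1 under Python 3.11.15. Without molecular identifiers, intervals and floors reflect counting error alone. With 1 library per group edgeR's test has no residual degrees of freedom, so no p-value was computed. Calling was first tested on simulated data that held counting error only, so that test cannot show how calls behave under variation between pools. Members, lists, the calling rule and the named genes (all called members and core subunits, tissue isoforms with their partners, the 3 highest and 3 lowest interval bounds per complex, and 2 of each per list) were chosen with earlier results of these data known. Of the genes this rule names, 2 are not reported here. Alternatives were DESeq2 1.42.0 size factors, total counts, upper quartile, neuron marker scaling, totals without Rn45s, haemoglobin and ribosomal protein rows, other count minimums and folds, a thinned AEW library, and changes in membership. Centring by GC content or coding length, leaving out members with shared words, and moving Ndufa4 were chosen after seeing the data. Positions and lengths are from GENCODE M21 (mm10).

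Of the marker lists not described with a result, adipocytes had 3 called higher and 0 lower of 9, satellite glia 0 and 2 of 6, Schwann cells 0 and 3 of 9, endothelial cells 0 and 1 of 7, fibroblasts 0 and 4 of 7, and heart muscle 0 and 0 of 2 measured.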

Additional observations from a re-analysis of the deposited data

How the results depend on the processing

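No paired analysis was possible because each group has 1 library and the labels give no replicate numbers. DESeq2 size factors, upper quartile scaling and no count minimum kept all 21 calls. Neuron marker scaling gave 0 higher and 54 lower, medians of -0.74 for all members, -0.69, -0.70, -0.91, -1.29 and -0.64 for complexes I to V, -0.54 for the core list, summed log2 ratios of -0.91, -0.61, -0.89, -1.44 and -0.91, and log2 ratios of -0.067 for Atp5s, -0.091 for Cox5b, -0.15 for Ndufa10, -0.051 for Ndufa12 and -0.16 for Ndufv1. Total counts gave medians of 0.14 for all members, -0.42 for complex IV and 0.23 for complex V, sums of -0.040, 0.26, -0.017, -0.57 and -0.036, and no call for Atp5g2, Ndufa4 and Ndufb2. Upper quartile sums were -0.16, -0.13, -0.69 and -0.15 for complexes I, III, IV and V. These shifts come from the scaling itself. A 2-fold limit left 1 higher and 5 lower, and an interval that excludes 1.5-fold left 2 higher. A summed count of at least 100 or 500 raised the complex II median to 0.22, and 500 moved that of complex IV to -0.17, with fewer genes. Without tissue isoforms the complex IV median was -0.15.

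Centring on GC content gave medians of -0.089 for all members, -0.053 for complex I and 0.039 for complex V. With the last 500 bases, 2 members were higher, and medians were -0.13 for all members, -0.048, -0.31, -0.72 and 0.0095 for complexes I, III, IV and V. Leaving out members with shared words left 9 lower and gave medians of 0.010, -0.71 and 0.29 for complexes III, IV and V. Moving Ndufa4 gave a complex I sum of -0.10. Without Cox7b, Cox6c and Cox7a2 the complex IV sum was 0.12. The cause was not tested for the GC shifts. Intervals for Ndufa4l2, Cox4i2 and Sdhd are wide because of their low counts.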
